A study of Rattus norvegicus with 320 samples.

Results

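miR-192, miR-194 and miR-215 are small regulatory RNAs made from a pair of related gene clusters, and this report gives their levels in 11 organs of the Fischer 344 rat at 4 ages. Every row of the count table named after one of them, with or without an arm suffix, was taken: 5 of the 616 rows. The rows rno-miR-192-5p and rno-miR-194-5p carry most of the reads. The others are rno-miR-215 and the opposite arms rno-miR-192-3p and rno-miR-194-3p. All are written below without the species prefix. Small RNA was sequenced from adrenal gland, brain, heart, kidney, liver, lung, skeletal muscle, spleen, thymus, testis and uterus of untreated female and male inbred rats aged 2, 6, 21 or 104 weeks, with 4 rats for each sex and age. The 320 libraries form 80 groups of organ, sex and age, and 10 organs were taken from each of 32 rats, so that libraries of different organs are not fully independent of each other. The rats carried no transgene or treatment, and each library is a piece of whole organ from 1 rat of an inbred strain. Brn_M_006_3 and Spl_F_104_4, which the study removed because they did not cluster with their organ, were left out, and 318 libraries remained.

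A microRNA is cut from a hairpin precursor, and its bases 2 to 8, the seed, pair with target messenger RNAs and lower their output. The clusters of miR-192 with miR-194 and of miR-215 with miR-194 are known from epithelia of the gut, liver and kidney, where hepatocyte nuclear factors switch them on. They are also known as targets of the tumour suppressor p53 and are used as markers of liver and kidney tissue. miR-122, which is almost restricted to hepatocytes, and miR-802, known from liver and pancreas, serve below as markers of liver RNA.

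The mature sequences are shown because miR-192-5p and miR-215 differ at only a few bases, which bears on how their reads can be told apart. They are written 5′ to 3′ with the seed in capitals, as the count table and RefSeq give them.
miR-192-5p: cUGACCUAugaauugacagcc
miR-215: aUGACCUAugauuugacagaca
miR-194-5p: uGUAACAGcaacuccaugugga
miR-192-3p: cUGCCAGUuccauaggucacag
miR-194-3p: cCAGUGGGgcugcuguuaucu
miR-192-5p and miR-215 were the 2 rows of the table with the seed UGACCUA, and no other row held the seeds of the other 3 members. Over the 21 bases compared, miR-192-5p and miR-215 differed by 3 substitutions, C1A, A12U and C20A, with the base of miR-192-5p first and positions counted from the 5′ end. The authors allowed fewer than 2 mismatches, and how a read matching both was counted is not given in the sources used here.

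On the RefSeq assembly GRCr8, all members lie on the plus strand. miR-194-5p is at chr1:212994038-212994059 in Mir194-2, followed by miR-194-3p at chr1:212994074-212994094. miR-192-5p is at chr1:212994232-212994252 and miR-192-3p at chr1:212994275-212994296, both in Mir192, and the Mir194-2 and Mir192 hairpins are 100 bases apart. The second cluster holds Mir194-1, with a further copy of miR-194-5p at chr13:99382730-99382751, and Mir215, with miR-215 at chr13:99383003-99383024, 191 bases apart. The miR-194-5p sequences of both clusters are the same, so its reads cannot be assigned to one of them, whereas the miR-194-3p row matches Mir194-2 and has 3 mismatches to the hairpin of Mir194-1.

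Depth ranged from 315550 to 10571800 counted reads per library and was lowest in liver, with a median of 1040990 reads against 4494420 in kidney. Levels are given as CPM, the counts of a library scaled to a common total by its own sum over the 616 rows, and one read was worth between 0.0946 and 3.17 CPM. The labels were checked against a list of 3 hepatocyte miRNAs, whose summed level was 22059 to 46590 CPM in liver and at most 55.5 CPM in heart, thymus and muscle. In 22 libraries of other organs, miR-122-5p was at 100 CPM or more. They were 7 adrenal, 5 lung, 4 uterus, 2 spleen, 2 testis, 1 brain and 1 kidney library. Some results that include these libraries are given with and without them, and others only with them. Lng_M_021_3 and Lvr_M_021_3 stood apart in the members themselves and are described below. In organ samples, fewer cells of a type and less of an RNA per cell cannot be told apart.

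miR-192-5p was the most abundant miRNA of the liver, in first place in 32 of 32 liver libraries. Its level was 179979 ± 19104 CPM at week 2, 205428 ± 11675 at week 6, 266807 ± 30752 at week 21 and 219050 ± 26515 at week 104 (SD, n = 8 at each age), which is 18.0%, 20.5%, 26.7% and 21.9% of all counted reads. In kidney it ranked between 3 and 6, with 34356 ± 3512, 63153 ± 2289, 70708 ± 12273 and 53770 ± 10888 CPM at the same ages (SD, n = 8). The groups did not overlap, since the lowest liver library held 159262 CPM and the highest kidney library 95211 CPM.

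The other organs held far less miR-192-5p. Their median level over all ages was highest in brain, at 2030 CPM or 0.965% of the liver median, and in lung, at 1723 CPM. It was 1619 CPM in testis, 1145 in spleen, 1057 in thymus, 700.0 in heart, 537 in adrenal, 491 in uterus and 478 in muscle. The lowest kidney library, with 27568 CPM, lay above every library of these 9 organs, the nearest being Lng_M_021_3 with 26475 CPM.

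**Figure D1:**
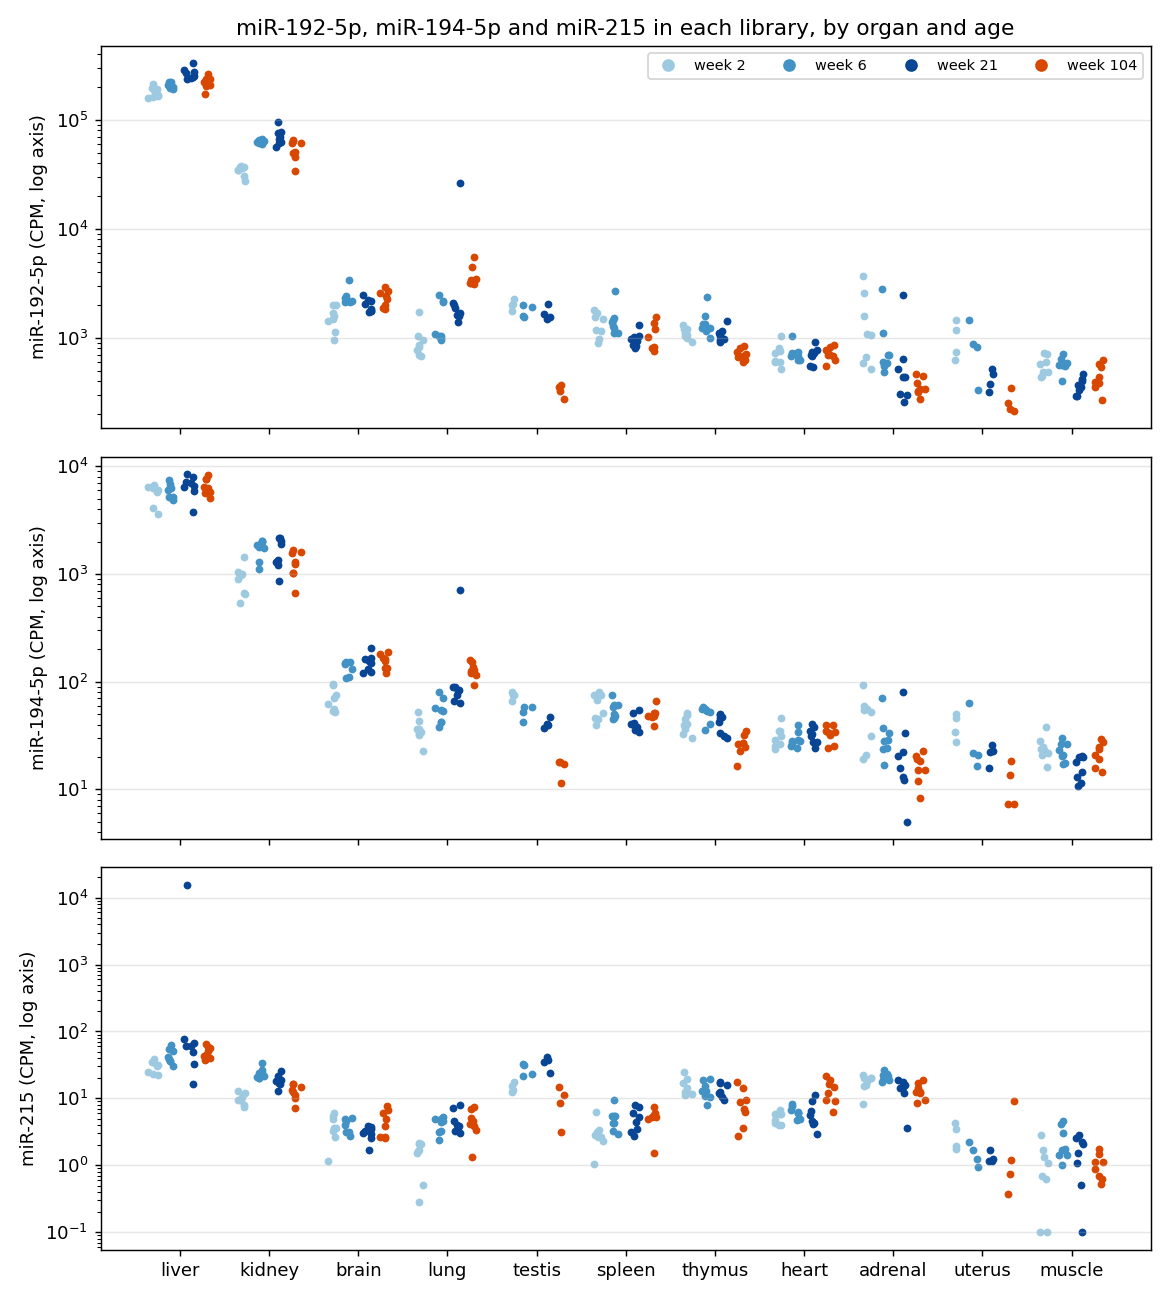
Levels of miR-192-5p, miR-194-5p and miR-215 in each of the 318 libraries in CPM on log axes, by organ and, within an organ, by age from left to right and by colour; 3 muscle libraries with no miR-215 read are drawn at 0.1 CPM. Liver and kidney stand above all other organs for miR-192-5p and miR-194-5p but not for miR-215, and single libraries stand apart in lung (26475 CPM of miR-192-5p) and liver (15541 CPM of miR-215).

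miR-194-5p was also highest in liver and then kidney, at a lower level. Liver held 5672 ± 1161, 6064 ± 913, 6673 ± 1437 and 6613 ± 1145 CPM at weeks 2, 6, 21 and 104, and kidney held 899 ± 283, 1732 ± 349, 1621 ± 503 and 1260 ± 344 CPM (SD, n = 8). The lowest liver library, at 3599 CPM, lay above the highest kidney library, at 2171 CPM. Brain had a median of 133 CPM and lung of 68.0 CPM, and the medians of the remaining organs were between 20.8 and 48.4 CPM.

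miR-215 was a minor member everywhere. Its group means in liver were 30.1 ± 6.22 CPM at week 2, 44.1 ± 11.0 at week 6 and 49.3 ± 9.78 at week 104 (SD, n = 8). At week 21, 7 of the 8 liver libraries held 16.3 to 77.1 CPM and Lvr_M_021_3 held 15541 CPM. Testis (14.7, 27.4, 34.2 and 9.40 CPM), adrenal (17.6, 21.4, 14.3 and 13.2 CPM), kidney (9.87, 23.8, 18.4 and 12.8 CPM) and thymus (15.4, 13.6, 13.4 and 8.73 CPM) followed at weeks 2, 6, 21 and 104, except that heart, at 13.6 CPM, had the second highest mean at week 104. Over all ages, the median of miR-215 in kidney was 40.0% and in adrenal 42.4% of that in liver, against 29.0% and 0.255% for miR-192-5p. The opposite arms were rare: miR-192-3p reached group means of 53.4 to 74.2 CPM in liver and 9.41 to 18.4 CPM in kidney, and miR-194-3p 38.1 to 47.2 and 7.47 to 14.1 CPM, with many libraries of other organs at 0.

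Organs were compared in pairs at each age with edgeR's quasi-likelihood test, and a pair was called at a difference of at least 1.5-fold with an adjusted p under 0.05 (Benjamini-Hochberg over the 616 miRNAs). Of 220 pairs, 130 were called for miR-192-5p, 137 for miR-194-5p, 164 for miR-215, 109 for miR-192-3p and 92 for miR-194-3p, where 59.0% of all tests over the table were called (61.8%, 61.0%, 59.2% and 54.3% at weeks 2, 6, 21 and 104). miR-192-5p, miR-194-5p and both opposite arms were higher in liver in 40 of 40 pairs with liver, against 24.0% for all miRNAs, and higher in kidney in 36 of 36 pairs of kidney with another organ than liver, against 24.1%. At the same threshold, each of these 4 kept both counts complete with library size, DESeq2, a covariate or block, or libraries left out, in every fit that tested it. For miR-215 liver was higher in 38 of 40 pairs, and kidney was higher in 26 and lower in 1 of its 36 pairs without liver. The pairs not called were thymus at week 2 and kidney at week 6, where liver was higher by less than 1.5-fold (log2 difference from kidney 0.54 ± 0.18 SE).

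Between liver and kidney, miR-192-5p was lower in kidney by a log2 difference of -1.98 ± 0.27 at week 2, -1.36 ± 0.24 at week 6, -1.54 ± 0.36 at week 21 and -1.64 ± 0.18 at week 104 (SE; edgeR adjusted p = 9.61e-10, 8.05e-07, 0.000197 and 2.36e-12). This is 3.94-, 2.57-, 2.91- and 3.12-fold more in liver. These folds come from the fit, which uses edgeR's TMM scaling, and the CPM means given above lie further apart. The difference of miR-194-5p was -2.27 ± 0.21, -1.49 ± 0.17, -1.69 ± 0.30 and -2.03 ± 0.17 (SE; edgeR adjusted p = 2.91e-16, 4.74e-12, 1.21e-06 and 8.93e-18). Over all miRNAs, 34.6%, 22.2%, 19.8% and 19.5% were higher in liver at these ages. For miR-215 the difference was -1.15 ± 0.21 at week 2 and -1.56 ± 0.31 at week 104 (SE), both called. In adrenal, whose miR-192-5p was among the lowest, miR-215 stood above brain at all 4 ages, by log2 differences of 3.16 ± 0.25, 3.73 ± 0.21, 3.61 ± 0.73 and 2.80 ± 0.34 (SE; edgeR adjusted p at most 9.51e-06).

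Below kidney, the order was less distinct. Among the 10 neighbouring pairs in the order of mean CPM, 6, 3, 3 and 4 of miR-192-5p were called at weeks 2, 6, 21 and 104, and 3, 6, 4 and 4 of miR-194-5p. These include liver with kidney and kidney with the next organ, which were called at every age. Some of the called pairs below kidney ran against the order of CPM. Over all organ pairs and miRNAs, 61.8%, 61.0%, 59.2% and 54.3% of tests were called at these ages. At week 104 lung stood above brain for miR-192-5p (log2 difference 1.24 ± 0.18 SE, edgeR adjusted p = 4.22e-09), and brain above spleen (0.96 ± 0.19, edgeR adjusted p = 4.07e-06). From spleen down, none of the 6 neighbouring pairs of week 104 was called. The fitted differences use edgeR's TMM scaling, which reordered some neighbours: adrenal and brain held 1474 and 1535 CPM of miR-192-5p at week 2, but the fitted level was higher in adrenal (log2 difference 1.03 ± 0.27 SE). The choice of scaling matters in this series, since the median of all miRNAs differed by more than 0.1 (log2) between TMM and library size in 268 of 332 contrasts, by up to 1.94.

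Both main members rose with age in kidney. miR-192-5p was between 27568 and 37572 CPM at week 2 and between 60519 and 67173 CPM at week 6, with no overlap. Its rise from week 2 was 0.79 ± 0.15 at week 6, 1.29 ± 0.15 at week 21 and 0.81 ± 0.15 at week 104 (log2, SE; edgeR adjusted p = 3.02e-05, 3.08e-09 and 1.46e-05). Of all miRNAs in kidney, 17.0%, 17.4% and 17.7% rose over these spans. miR-194-5p rose by 0.90 ± 0.13, 1.10 ± 0.13 and 0.72 ± 0.13 (edgeR adjusted p = 3.01e-07, 4.62e-09 and 1.18e-05). miR-215 rose by 1.17 ± 0.15 to week 6 and 1.10 ± 0.15 to week 21, and both opposite arms rose over the same spans, by 0.95 and 1.204 for miR-192-3p and by 0.85 and 1.11 for miR-194-3p. The later changes of miR-192-5p in kidney, up by 0.50 from week 6 to 21 and down by 0.47 from week 21 to 104, each lost their call in 5 of 12 other fits, among them that with the sequencing lane in the model (edgeR adjusted p = 0.267 and 0.431) and that without replicate 1 (0.27 and -0.27, edgeR adjusted p = 0.268 and 0.223).

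In liver, miR-192-5p also rose with age. Week 2 libraries held 159262, 177998 and 213407 CPM (lowest, median and highest) and week 21 libraries 237568, 259128 and 329193 CPM, without overlap. The rise from week 2 was 1.05 ± 0.13 to week 21 and 0.57 ± 0.13 to week 104, and from week 6 to week 21 it was 0.74 ± 0.13 (log2, SE; edgeR adjusted p = 3.05e-08, 0.00048 and 0.000248), where 16.4%, 15.7% and 4.87% of all miRNAs in liver rose. Scaled by library size alone the rise to week 21 was 0.57 (edgeR adjusted p = 1.11e-06). miR-194-5p rose by 0.69 ± 0.14 to week 21 with TMM scaling (edgeR adjusted p = 0.000103) but by 0.24 with library size (edgeR adjusted p = 0.212), and its libraries overlapped, with 3599 to 6717 CPM at week 2 and 3767 to 8483 CPM at week 21.

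**Figure D2:**
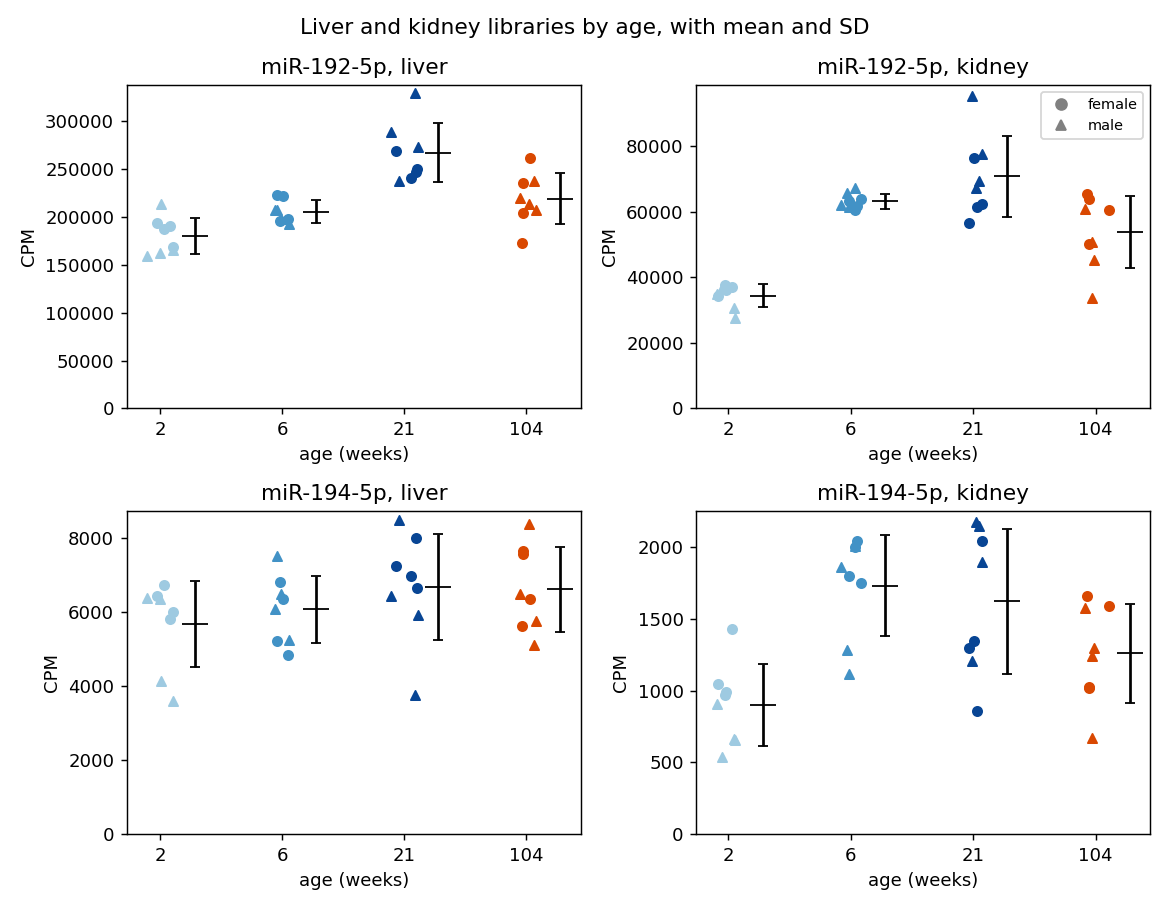
Levels of miR-192-5p (top) and miR-194-5p (bottom) in CPM in liver (left) and kidney (right) at 4 ages, with circles for females, triangles for males and bars for the mean ± SD of the 8 libraries. In kidney the week 2 libraries of miR-192-5p (at most 37572 CPM) lie below all those of week 6 (at least 60519 CPM), and in liver those of week 2 (at most 213407 CPM) lie below all those of week 21 (at least 237568 CPM).

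Whether liver and kidney changed differently was tested as an interaction, for weeks 6, 21 and 104 each against week 2, where 29.7% of all tests were called. For miR-192-5p the change in liver minus that in kidney was -0.34, -0.05 and -0.14 (log2) and none was called by edgeR. Scaled by library size, all 3 were called. For miR-194-5p the rise to week 6 was smaller in liver by a log2 difference of -0.545 (edgeR adjusted p = 0.0236), which lost its call without replicate 2 or 4 (edgeR adjusted p = 0.36 and 0.192).

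In brain, miR-194-5p rose between weeks 2 and 6. It was 52.5 to 96.0 CPM at week 2 and 109 to 152 CPM at week 6, without overlap, and 119 to 189 CPM at week 104. The rise from week 2 was 1.25 ± 0.11, 1.59 ± 0.11 and 1.60 ± 0.11 at weeks 6, 21 and 104 (log2, SE; edgeR adjusted p = 2.45e-10, 4.67e-13 and 3.54e-13), where 23.5%, 32.3% and 28.7% of all miRNAs in brain rose. A further rise of 0.33 ± 0.11 from week 6 to 21 was called (edgeR adjusted p = 0.0282), but lost its call in 7 of 12 other fits. miR-192-5p rose by 0.84 ± 0.16 to week 21 and 1.02 ± 0.16 to week 104 (edgeR adjusted p = 7.26e-05 and 4.82e-06), with overlapping libraries.

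In lung, miR-192-5p and miR-194-5p rose with age. Their means were highest at week 21, at 4843 and 157 CPM, and without Lng_M_021_3 they were 1753 and 78.4 CPM at that age, below the 3669 and 128 CPM of week 104. Week 2 libraries held 681, 843 and 1741 CPM of miR-192-5p (lowest, median and highest) and week 104 libraries 3088, 3273 and 5514 CPM, without overlap. The rise over this span was 2.22 ± 0.42 for miR-192-5p and 2.06 ± 0.33 for miR-194-5p (log2, SE; edgeR adjusted p = 4.1e-05 and 2.83e-06), where 23.5% of all miRNAs in lung rose, and without the lung libraries holding miR-122-5p it was 2.39 for miR-192-5p. miR-194-5p went from 22.9 to 52.6 CPM at week 2 to 92.3 to 158 CPM at week 104.

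The lung values of week 21 rest partly on 1 library. Lng_M_021_3 held 26475 CPM of miR-192-5p, 13.4 times the mean of the other males of its group (1882 to 2072 CPM), and 707 CPM of miR-194-5p against 65.6 to 89.1 CPM. It also held 2885 CPM of miR-122-5p against 2.73 to 5.43 CPM and 16301 CPM of miR-133a-3p, a muscle miRNA, against 3315 to 3476 CPM. All 3 hepatocyte markers were above the other males, summing to 3030 CPM against 3.64 to 5.81. Its excess came to 8.25% of the male liver level at week 21, taken without Lvr_M_021_3, for miR-192-5p and 11.7% for miR-194-5p. For miR-122-5p it was 11.6%, for miR-802-5p 6.84% and for miR-215 4.6%. Whether this library held liver RNA was not tested. With it, miR-192-5p rose by 2.32 from week 2 to 21, where 24.0% of all miRNAs in lung rose. Without it, that rise was 1.25 (edgeR adjusted p = 4.94e-05), and that from week 6 to 21 was 0.40 instead of 1.47 and no longer called (edgeR adjusted p = 0.241).

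In adrenal, the libraries with more of a liver marker held more miR-192-5p and miR-194-5p. In the 7 adrenal libraries with at least 100 CPM of miR-122-5p (172 to 933 CPM), miR-192-5p was 1071 to 3704 CPM, whereas in the other 25 it was 257 to 1111 CPM, with a slight overlap. miR-194-5p was 52.0 to 92.3 CPM in the former and 5.03 to 36.8 CPM in the latter, and miR-215 did not separate (14.9 to 22.2 and 3.56 to 26.9 CPM). The fall of miR-192-5p from week 2 to 104 was -1.74 ± 0.46 with all libraries (log2, SE; edgeR adjusted p = 0.00238), where 23.7% of all miRNAs in adrenal fell. It was -0.19 without those 7. Most of the 7 were of week 2 (Adr_F_002_1, Adr_F_002_2, Adr_F_002_3, Adr_M_002_3 and Adr_M_002_4) and none was of week 104. The fit without them thus keeps few week 2 libraries. For the change from week 2 to 104, the split by miR-122-5p cannot be told apart from age. Within single ages, Adr_M_006_2, also of the 7, held 2803 CPM of miR-192-5p against 483 to 1111 CPM in the others of week 6. Adr_M_021_3, likewise of the 7, held 2457 CPM against 257 to 634 CPM in the others of week 21. With all libraries, the call of the fall of miR-192-5p was lost without replicate 3 and with the lane in the model (-0.82 and -0.89, edgeR adjusted p = 0.06 and 0.0915). For miR-194-5p the change was -1.21 with all libraries and -0.18 without those 7. The part of liver RNA in these libraries was not tested beyond these values.

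**Figure D3:**
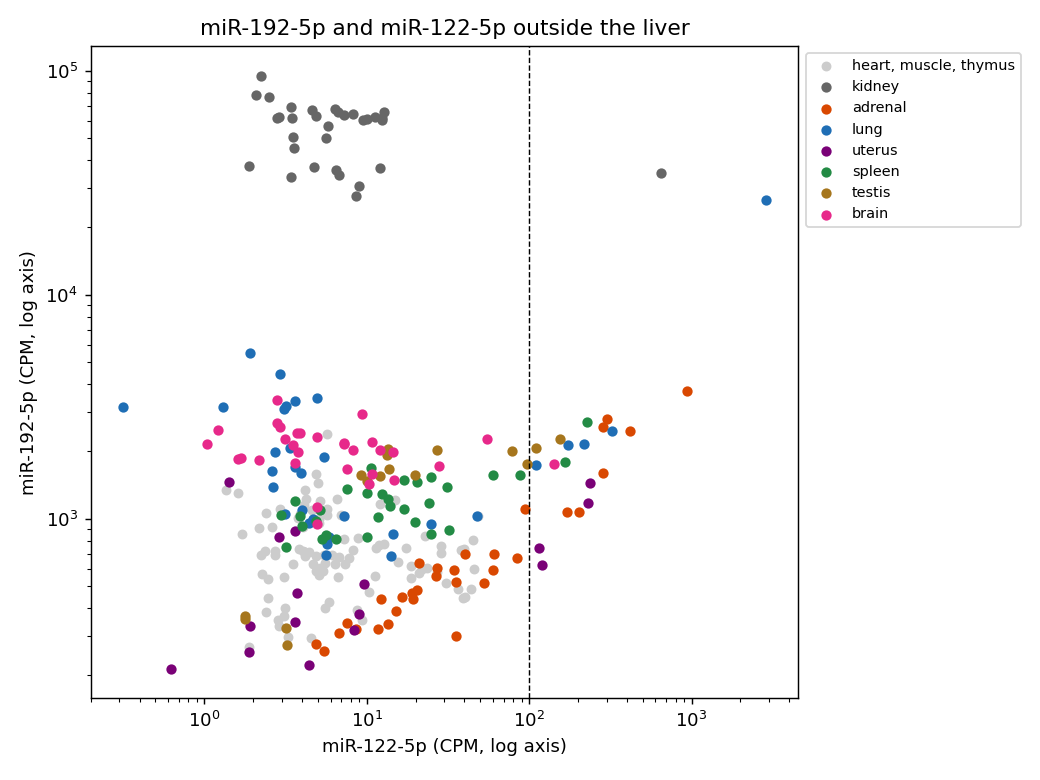
Level of miR-192-5p against that of miR-122-5p in CPM, both on log axes, in each library of the 10 organs other than liver; the dashed line marks 100 CPM of miR-122-5p. The 7 adrenal libraries to the right of the line hold 1071 to 3704 CPM of miR-192-5p, and the lung library at 2885 CPM of miR-122-5p holds 26475 CPM.

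Thymus and testis were lower at week 104. Thymus libraries held 602 to 835 CPM of miR-192-5p at week 104 against 923 to 1443 CPM at week 21, without overlap, a fall of -0.98 ± 0.15 (log2, SE; edgeR adjusted p = 8.89e-07), where 21.6% of all miRNAs in thymus fell. miR-194-5p fell by 1.00 and miR-215 by 1.01 over the same span. Testis libraries held 1480, 1562, 1667 and 2049 CPM of miR-192-5p at week 21 and 358, 326, 369 and 274 CPM at week 104. This difference was -0.998 ± 0.27 with TMM scaling (edgeR adjusted p = 0.00487), where 24.8% of all miRNAs in testis fell, and -2.35 with library size. In uterus the fall from week 2 to 104 (-1.04 ± 0.37, edgeR adjusted p = 0.0273) could not be refitted without liver marker reads, since all 4 week 2 libraries held 114 to 236 CPM of miR-122-5p.

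In heart and muscle the direction depended on the scaling. Heart held 706, 731, 701 and 714 CPM of miR-192-5p at weeks 2, 6, 21 and 104, with SDs of 101 to 161 CPM. TMM scaling gave a rise of 0.71 to week 21 (edgeR adjusted p = 0.000196) and library size gave -0.00137. The rises of 0.58 for miR-192-5p and 0.76 for miR-194-5p in muscle from week 2 to 104 became -0.30 and -0.15 with library size, and that of 0.43 for miR-194-5p in heart from week 2 to 6 became -0.10.

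Over all organs and 5 age contrasts, edgeR called 27 of 55 tests for miR-192-5p, 26 for miR-194-5p, 24 for miR-215, 14 for miR-192-3p and 5 for miR-194-3p, where 32.9% of all tests over the table were called. Of these, 13, 11, 11, 6 and 3 kept their call and direction, by adjusted p alone, in every other fit that gave one. Fits without an adjusted p for a contrast were not counted. From week 2 to 21, 5 organs rose and none fell for miR-192-5p, 5 rose and 1 fell for miR-194-5p, and 7 rose and none fell for miR-215, where 21.0% of all tests rose and 25.3% fell. From week 2 to 104, 6 organs rose and 4 fell for miR-192-5p and likewise for miR-194-5p, and 5 rose and 1 fell for miR-215, where 21.8% of all tests rose and 28.1% fell.

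miR-215 had an age course of its own in heart. Its 8 libraries at week 104 held 9.39, 6.35, 9.06 and 14.8 CPM in females and 12.1, 19.1, 21.4 and 16.3 CPM in males, against 4.02 to 6.60 CPM at week 2. Only the lowest of the week 104 libraries lay within the range of week 2. The rise was 1.91 ± 0.21 from week 2 and 1.07 ± 0.21 from week 21 (log2, SE; edgeR adjusted p = 1.48e-09 and 0.00169), where 28.6% and 3.57% of all miRNAs in heart rose. Both calls held under every alternative run, and the rise from week 2 was 1.33 with library size.

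In lung, miR-215 rose by 1.59 ± 0.31 from week 2 to 6 (edgeR adjusted p = 0.000113) and by 1.80 ± 0.31 to week 104, from 0.285 to 2.19 CPM at week 2 to 2.37 to 5.23 CPM at week 6, where 15.1% of all miRNAs in lung rose. These levels rest on few reads, with 61 over the 8 libraries at week 2 and 146 at week 6. In spleen it rose by 1.13 ± 0.32 from week 2 to 104 (edgeR adjusted p = 0.00476). The libraries overlapped, with 1.04 to 6.33 CPM at week 2 and 1.51 to 7.42 CPM at week 104. Spleen libraries of all ages held only 2 to 20 miR-215 reads each. The authors report good RNA integrity for most samples, with the youngest spleen samples as the exception. Age and RNA integrity thus cannot be told apart in this spleen change, and the effect of RNA integrity was not tested. In testis, miR-215 was 13.4, 17.6, 12.4 and 15.5 CPM at week 2 and 41.1, 23.6, 34.5 and 37.5 CPM at week 21, without overlap. The rise was 1.505 ± 0.29 (log2, SE; edgeR adjusted p = 0.000291), where 21.4% of all miRNAs in testis rose, and lost its call with the lane in the model (edgeR adjusted p = 0.0814). Its difference between weeks 104 and 2 in testis was 0.84 with TMM scaling and -0.65 with library size.

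**Figure D4:**
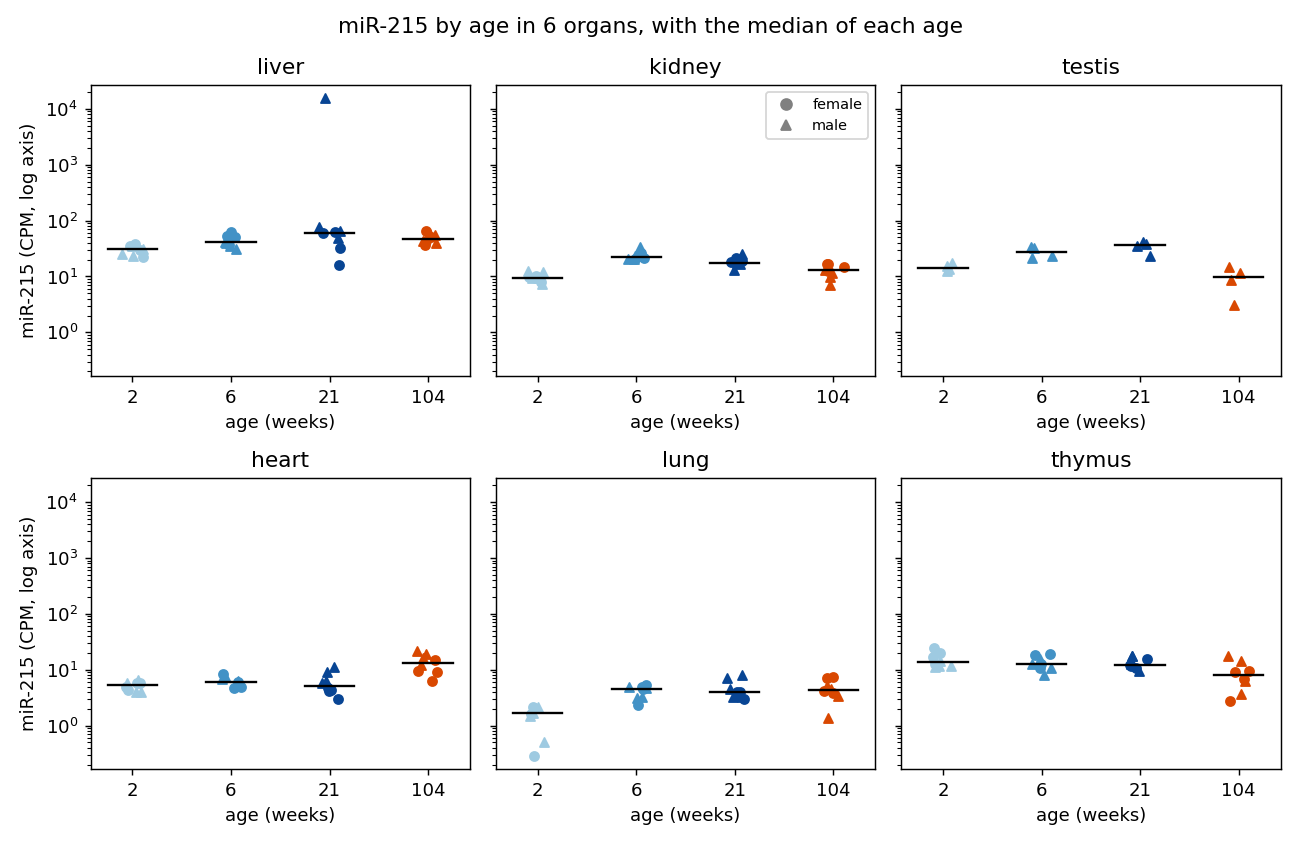
miR-215 in CPM on a log axis at 4 ages in liver, kidney, testis, heart, lung and thymus, with circles for females, triangles for males and a line at the median of each age. The heart libraries of week 104 (6.35 to 21.4 CPM) lie mostly above those of week 2 (4.02 to 6.60 CPM), and Lvr_M_021_3 stands at 15541 CPM.

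The single liver library with high miR-215 sets the fitted values of that organ. Lvr_M_021_3 held 242 times the mean of the other 3 males of its group (49.1 to 77.1 CPM). Its miR-192-5p was 237568 CPM, below the 273003 to 329193 CPM of those males, and its miR-194-5p was 8483 CPM, above their 3767 to 6427 CPM. It also held more miR-375-3p (3456 against 477 to 834 CPM), miR-216a-5p (327 against 0 to 10.2 CPM) and miR-217-5p (303 against 0 to 1.45 CPM), which are known from pancreas. All 3 of these markers were above the other males, as were all 4 epithelial markers, which summed to 3465 CPM against 504 to 695, while the hepatocyte sum lay within their range (29948 against 22359 to 31132 CPM).

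With that library, miR-215 in liver rose by 4.14 ± 0.70 from week 2 to 21, and without it by 1.32 (log2; edgeR adjusted p = 5.61e-06 and 1.4e-05). The rise from week 6 to 21 went from 3.49 to 0.66 and the fall from week 21 to 104 from -3.14 to -0.31, and neither was called without it (edgeR adjusted p = 0.0828 and 0.641). The larger change of miR-215 in liver than in kidney from week 2 to 21 (3.22, edgeR adjusted p = 0.000279) was not called without it.

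Females and males did not differ detectably in the mean over ages. edgeR called 0 of 9 organs for each of the 5 members, against 1.39% for all miRNAs, and at an unadjusted p under 0.05 there were 0 for miR-192-5p, miR-192-3p and miR-194-3p, 1 for miR-194-5p and 3 for miR-215. In liver, miR-192-5p was 216188 CPM in females and 219444 CPM in males, and in kidney 55627 and 55367 CPM. At single ages, 1 of 36 tests was called for miR-194-5p and 1 for miR-215, against 1.32% for all miRNAs. The former was brain at week 2, where females held 93.4, 71.2, 96.0 and 75.6 CPM and males 61.9, 52.5, 53.1 and 55.3 CPM, without overlap (log2 difference female minus male 0.73, edgeR adjusted p = 0.0025), and the call was lost without replicate 2 or 3. The latter was liver at week 21 (-6.46), which was -0.81 without Lvr_M_021_3 (edgeR adjusted p = 0.351).

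The ratio of miR-192-5p to miR-194-5p reads within a library does not depend on the scaling. Because the capture of different miRNAs is unequal in such libraries, it is a ratio of reads and not of molecules. It was 41.3-fold in kidney and 34.98-fold in liver, 22.6- to 29.5-fold in 8 further organs and 16.6-fold in brain (from mean log2 ratios). Ratios of liver and kidney were compared at each age and between ages, 10 comparisons in all, with exact two-sided permutation tests over 8 and 8 libraries. None passed after adjustment, and 1 had a p under 0.05 before it, liver minus kidney at week 104 with a log2 difference of -0.38 (exact p = 0.0185, adjusted p = 0.185).

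**Figure D5:**
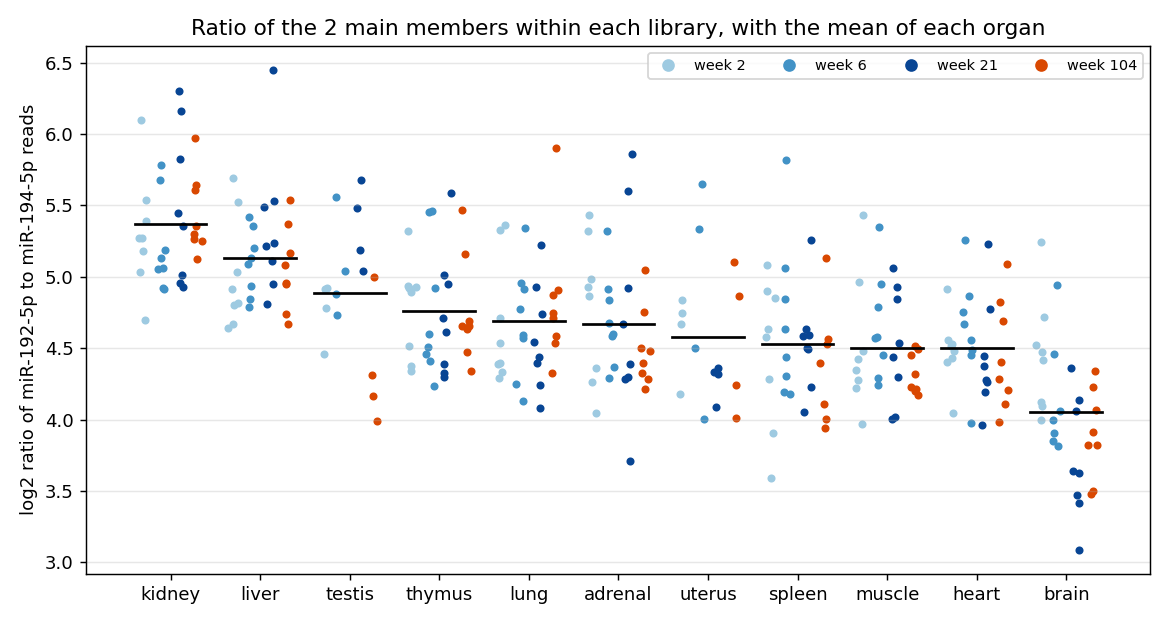
Log2 ratio of miR-192-5p to miR-194-5p reads in each library by organ, coloured by age, with a line at the mean of each organ. Organ means run from 5.37 in kidney to 4.05 in brain, with libraries of one organ spread over more than 1 log2 unit.

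In lung the opposite arm miR-192-3p rose by 3.68 ± 0.76 from week 2 to 21 and 3.45 ± 0.76 to week 104 (log2, SE; edgeR adjusted p = 0.000162 and 0.000328). It rested on few reads, with 8 reads over the 8 libraries at week 2 against 42 and 39. Without Lng_M_021_3 the rise to week 21 was 3.08.

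The opposite arms and miR-215 were small fractions of their partners. miR-192-3p reads were 0.0295% of miR-192-5p reads in liver and 0.0268% in kidney, and miR-194-3p reads were 0.686% and 0.864% of miR-194-5p reads (means over libraries). miR-215 reads were 0.02% ± 0.00517 (SD, n = 31) of miR-192-5p reads in liver without Lvr_M_021_3 and 0.0236% to 0.0377% at the 4 ages in kidney. The share was 0.201% in brain, 0.208% in lung, 1.11% in heart, 1.22% in thymus, 1.82% in testis and 2.92% in adrenal. It thus differed between organs. Whether some reads counted as miR-215 in liver and kidney came from miR-192-5p was not tested.

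Among libraries of one organ, sex and age, miR-192-5p and miR-194-5p varied together in adrenal (Pearson's r = 0.845, Spearman's rho = 0.788, n = 32 deviations from group means of log2 CPM; permutation p = 2e-05 and 7e-05, adjusted over 11 organs 0.00022 and 0.00077). Without the 2 libraries farthest from the median r was 0.677, and without the 7 libraries with miR-122-5p it was 0.315 (permutation adjusted p = 0.324, n = 25). No other organ passed, with r between -0.42 and 0.834. In lung, r fell from 0.834 to 0.221 without the 2 farthest libraries. In liver r was -0.329 and in kidney 0.248.

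Over the 80 group means of log2(CPM + 1), the miRNAs most like miR-192-5p among 529 candidates were miR-194-5p (Pearson's r = 0.993), miR-192-3p (0.977), miR-194-3p (0.969), miR-802-3p (0.841) and miR-802-5p (0.831). The same 5 places for miR-194-5p went to miR-192-5p, miR-192-3p (0.972), miR-194-3p (0.965), miR-802-3p (0.851) and miR-802-5p (0.840). miR-215 came in place 8 for miR-192-5p (r = 0.669) and 11 for miR-194-5p (r = 0.638). The points share organs and libraries, so these coefficients are a description. With Spearman's coefficient both miR-802 arms gave way to miR-3559-3p and miR-200b-3p in both lists. Among miRNAs with at least 100 CPM in some group, which leaves out both opposite arms, miR-215 entered the 5 most like miR-192-5p. It moved up because rows above it left the list, not by a higher coefficient. miR-192-5p, miR-194-5p and miR-215 stayed among the candidates at any level, and miR-215 reached 100 CPM only through Lvr_M_021_3.

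Other miRNAs of the same tissues and pathway were followed over the same ages. Of 6 hepatocyte miRNAs measured in liver, 3 rose and none fell from week 2 to 21, where 16.4% of all miRNAs in liver rose and 26.8% fell, with a median change of 0.57 beside -0.22 for all miRNAs. The most abundant, miR-148a-3p and miR-122-5p, were not called (-0.21 and 0.34, edgeR adjusted p = 0.288 and 0.0562), nor was miR-101b-3p (-0.14). miR-802-5p rose by 1.86 and miR-802-3p by 1.60. Of 10 epithelial and renal miRNAs in kidney, 6 rose and 1 fell over this span, where 17.4% of all miRNAs in kidney rose and 24.2% fell, with a median of 0.56 beside -0.15. Of this list, miR-30a-5p rose by 0.75, and miR-10a-5p (0.13) and the epithelial miR-200b-3p (0.39) were not called.

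A list of 7 further rows holds p53-responsive miRNAs: miR-34a-5p, the miR-34b and miR-34c arms, miR-107-3p and miR-145-5p. From week 2 to 104, 43 of 77 tests over 11 organs rose and 6 fell, where 21.8% of all tests rose and 28.1% fell. By organ, 7 of 7 rose in thymus, where miR-192-5p, miR-194-5p and miR-215 fell and where 154 of all 616 miRNAs rose and 203 fell. In kidney 1 of 7 rose and 3 fell, where 109 of all 616 rose and 160 fell. In liver 2 of 7 rose and none fell, where 97 of all 616 rose and 178 fell. The remaining organs are counted only in the total given above, and a role of p53 was not tested.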

How the data were processed

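The authors trimmed reads with fastp 0.23.2, kept those of 16 to 35 nt, aligned them with Bowtie 1.3.1 to miRBase and, for other RNA, to further collections and the rn7 genome, and dropped miRNAs averaging less than 1 count per library. The values deposited by the authors are raw counts per miRNA in 320 libraries, without normalization. CPM used column totals (315550 to 10571800). Counts were tested in R 4.3.3 with edgeR 4.0.16 (TMM, quasi-likelihood, Benjamini-Hochberg over 616 miRNAs): 1 fit per age over all organs, 1 fit per organ over groups of sex and age, and 1 fit of liver and kidney. Alternatives used DESeq2 1.42.0, library size, sequencing lane, a replicate block, other fold thresholds, a minimum mean of 10 counts, the 320 libraries together, and leaving out replicates or libraries that stood apart. Ratios had 0.5 count added. The count tests were checked on simulated data. Lanes came from the study's sample table. The members, lists and tests were chosen with earlier results of these data known. Named were all members, the 5 miRNAs most like miR-192-5p and miR-194-5p, and up to 3 of each list by mean CPM; marker miRNAs quoted for single libraries and the changes of miR-802 were chosen after their values were seen. The labels state 4 rats per sex and age. Replicate numbers are not stated to mark a rat across organs: liver and kidney libraries of one number deviated together with a mean r of 0.0194 (7 of 32 pairs over 0.1), so no block was used in the tests reported. One miRNA of the hepatocyte list, miR-885-5p, had no row.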

Additional observations from a re-analysis of the deposited data

Results flagged for a closer look

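Single libraries far from the others of their organ and age were looked for with Dixon's limit on CPM. Its chance rate of about 1 in 20 groups holds for independent, normally distributed values, whereas the miRNAs tested here share libraries. In 22 of 132 groups for miR-192-5p, miR-194-5p and miR-215, the highest or lowest of 4 to 8 libraries lay beyond Dixon's 95% limit. For miR-192-5p these were Lng_M_021_3 with 26474.8 CPM (others of its age 1385 to 2072), Adr_M_006_2 with 2802.9 (483 to 1111), Adr_M_021_3 with 2456.85 (257 to 634), Brn_F_006_3 with 3401.62 (2133 to 2408), Hrt_M_006_1 with 1036.82 (628 to 742), Lng_F_002_4 with 1740.6 (681 to 1034), Spl_M_006_4 with 2709.05 (1100.3 to 1530.4), Spl_F_021_4 with 1307.01 (815 to 1037), Thm_M_006_4 with 2385.88 (998 to 1590.0) and Thm_F_021_3 with 1443.03 (923 to 1151).

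For miR-194-5p they were Lng_M_021_3 with 707.274 CPM, Adr_M_006_2 with 70.1231, Adr_M_021_3 with 80.9239, Tst_M_104_3 with 11.4908 (others 17.2 to 18.1) and Utr_F_006_4 with 63.9029 (16.4 to 21.8). For miR-215 they were Lvr_M_021_3 with 15540.6 CPM (16.3 to 77.1), Adr_M_021_1 with 3.56163 (12.2 to 18.8), Kdn_M_006_4 with 33.458 (20.3 to 26.5), Spl_F_002_2 with 6.33476 (1.04 to 3.32), Spl_M_006_3 with 9.37357 (2.94 to 5.54), Spl_M_104_4 with 1.50764 (5.01 to 7.42) and Utr_F_104_2 with 9.00024 (0.378 to 1.21).

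Effects differed between groups in 3 tests by edgeR. The change of miR-194-5p from week 2 to 6 was smaller in liver than in kidney (log2 difference -0.545, adjusted p = 0.0236), that of miR-215 from week 2 to 21 was larger in liver (3.22, adjusted p = 0.000279; not called without Lvr_M_021_3), and the sex difference of miR-215 in liver changed between weeks 2 and 21 (-6.59, adjusted p = 0.00556), which was -0.93 without Lvr_M_021_3 (adjusted p = 0.699). The libraries left out held more than any kept library of their organ: Brn_M_006_3 had 6827.14 CPM of miR-192-5p and 243.777 of miR-194-5p (kept brain libraries 952 to 3402 and 52.5 to 206), and Spl_F_104_4 had 8663.81 and 267.852 (kept spleen libraries 750.3 to 2709 and 33.9 to 80.2).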

How the results depend on the processing

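Of the single values, 1392 of 1635 repeats under an alternative kept their direction and their side of the threshold. Age contrasts called numbered 17 for miR-194-5p and 7 for miR-192-3p with lane, and 8, 8, 9 and 2 for miR-192-5p, miR-194-5p, miR-192-3p and miR-194-3p at a change of at least 2-fold. Organ pairs at 4-fold were 83 for miR-194-5p and 103 for miR-215. Interactions of liver and kidney called were 3, 2, 1 and 1 for miR-192-5p, miR-194-5p, miR-192-3p and miR-194-3p with library size, 1, 2 and 1 for the first 3 with DESeq2 and with a mean count of at least 10, and 1 for miR-192-3p with lane. For miR-215 they were 0 with the replicate block, with DESeq2 (which gave no adjusted p) and without Lvr_M_021_3 or liver traces, and for miR-194-5p 0 with the block. Sex differences called at single ages were 1 and 2 for miR-192-5p with all 320 samples and DESeq2, and 0 for miR-215 without Lvr_M_021_3 or traces; the mean over ages gave 1 for miR-215 with lane, and sex by age gave 1 for miR-194-5p and miR-192-3p with DESeq2 and 0 for miR-215 with DESeq2, without traces or without the 2 libraries. Joint variation was called in 2 organs with TMM-scaled CPM and in 0 without traces. The cause of these changes was not tested.

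Leaving out a replicate gave 21 to 26, 17 to 22, 19 to 23, 8 to 11 and 4 to 6 age contrasts for miR-192-5p, miR-194-5p, miR-215, miR-192-3p and miR-194-3p, 127 to 142, 134 to 141, 151 to 162, 93 to 102 and 85 to 95 organ pairs, 0 to 1 interactions for miR-194-5p and miR-215, 0 to 1 sex differences at single ages for miR-192-5p, miR-194-5p and miR-215, 0 to 1 by age for miR-215, and 0 to 2 organs in joint variation. The replicate block gave 25, 24, 26, 11 and 4 age contrasts.

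Signs turned with library size for miR-192-5p in heart to week 21 (-0.00137) and muscle to week 104 (-0.30), miR-194-5p in heart to week 6 (-0.10) and muscle to week 104 (-0.15), and miR-215 in testis to week 104 (-0.65). Uncalled ratios turned when a replicate was left out, in liver at week 6 (-0.034 to 0.21, and -0.019) and week 104 (-0.10 to 0.18) and in kidney at week 21 (-0.087 to 0.46). Uncalled correlations turned in brain (0.264 with all samples, 0.0447 with TMM), lung (-0.31 without traces), liver (0.0166 with TMM), spleen (0.653 with all samples, 0.38 with TMM), thymus (0.32 with TMM) and testis (0.313 with TMM). Without a replicate they were -0.35 to 0.235 in heart (also -0.00625), -0.23 to 0.0825 in spleen (also 0.0283 and 0.0315), -0.44 to 0.164 in thymus (also 0.119) and -0.588 to 0.0729 in testis.

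Liver was shallowest. The opposite arms rest on few reads outside liver and kidney, with many libraries at 0. The uterus age fit and its week 2 pairs without liver traces could not be run. The 2 alternatives without libraries that stood apart were chosen after seeing the data.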
